A study of Mus musculus with 39 samples.

Results

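Change over the days of tumour growth was followed as a straight line in the gastrocnemius, a calf muscle, of C57BL/6 mice carrying Lewis lung carcinoma (LLC), a mouse lung tumour line used as a model of cancer cachexia. All libraries with 7, 14, 21 or 28 days of tumour and a count file were taken, 30 of the 38 libraries analysed. Muscle came from 8 mice at 7 days (week 1), 7 at 14 days (week 2), 7 at 21 days (week 3) and 8 at 28 days (week 4). All had tumour cells placed at the hind flank at the age of 8 weeks, and the labels give no genetic change. The 8 PBS mice carried no tumour and stayed out of the fit, but their levels are given at the start of each series as a description. Mice of later weeks were also older by the same number of days, so age and tumour time cannot be told apart. How the animals or collections relate is not in the labels, so a p-value here speaks of the spread among these libraries.

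Cachexia is the loss of muscle and fat that accompanies many tumours and is not reversed by feeding. In muscle, inflammatory cytokines and glucocorticoids are known to act through STAT3, C/EBP and FoxO factors on the genes of protein breakdown, among them the ubiquitin ligases atrogin-1 (Fbxo32) and MuRF1 (Trim63), the proteasome and autophagy. Tumours that release colony-stimulating factors are also known to change blood cell production, and blood cells remain in a whole muscle sample.

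A gene's slope is given here as the log2 change in level per week (7 days), with its standard error, from an edgeR quasi-likelihood fit of all 30 libraries with a term for sequencing lane 2. A gene is called when its p, adjusted by Benjamini and Hochberg's method over all genes tested, is under 0.05, and levels are in CPM, the reads of a gene scaled to the size of its library. Reads in genes numbered 13356756 to 24801565 per library, with a median of 18295100. Lane 2 held 3, 1, 1 and 5 of the libraries of weeks 1, 2, 3 and 4. Lane 4 held 2, 2, 3 and 3 of them, lane 5 held libraries of weeks 1 and 2, and lane 6 held libraries of weeks 2 and 3. At equal day, 5882 of 14478 genes (40.6%) differed between lane 2 and the other lanes, 2871 (19.8%) higher and 3011 (20.8%) lower in lane 2. The muscle label was checked against fibre markers. Acta1, Ckm, Myh4, Ttn, Des, Mb and Neb together made up 90617 to 121376 CPM at week 4 and 102827 to 164827 CPM at week 1. Their sum was 108889 to 174838 CPM at week 2 and 55577 to 147649 CPM at week 3, which held the lowest library. None of these 7 fibre markers passed the threshold over all days; Myh4 alone had an unadjusted p under 0.05, with a slope of -0.13 ± 0.056 (adjusted p = 0.084).

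Of 14478 genes tested, 3701 (25.6%) changed with day, 1972 (13.6%) rising and 1729 (11.9%) falling. The counts of each gene list below are to be read beside these shares. The 12 rising genes of smallest p at a mean of at least 5 CPM included Csf2rb2, Csf3r, Jak3, Il4ra, S100a9 and Plvap, and the 12 falling ones Hmgcs1, Fsd1l, Pfn1 and Glud1. The rising side also held the larger changes: over the 21 days from week 1 to week 4 the fitted line rose at least 4 times for 156 genes and fell at least 4 times for 15. At least 2 times, the counts were 496 rising and 182 falling. Most of the changed genes therefore moved by less than 2 times over the 21 days.

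When the weeks were fitted as separate levels with the same lane term, little change lay between weeks 1 and 2. Among the genes called rising, the median step was 0.05 on the log2 scale between weeks 1 and 2, 0.27 between weeks 2 and 3 and 0.23 between weeks 3 and 4. Among those called falling, the median steps were -0.07, -0.21 and -0.20. All 3 steps pointed up for 1003 (50.9%) of the rising genes and down for 1150 (66.5%) of the falling genes. Over all genes tested, all 3 steps pointed up for 1580 (10.9%), and those with all 3 down were not counted. The rising and falling genes were chosen on the slope, so the steps are a description. No gene departed from a straight line over the 4 weeks at the adjusted threshold, with 831 genes at an unadjusted p under 0.05 and a lowest adjusted p of 0.33. Among named genes with a mean of at least 5 CPM, the 5 of smallest p for a departure were Apol11b, Zfp825, Hbb-bt, Hba-a2 and Tent5c, each with a higher fitted level at week 3 than at week 4.

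**Figure D1:**
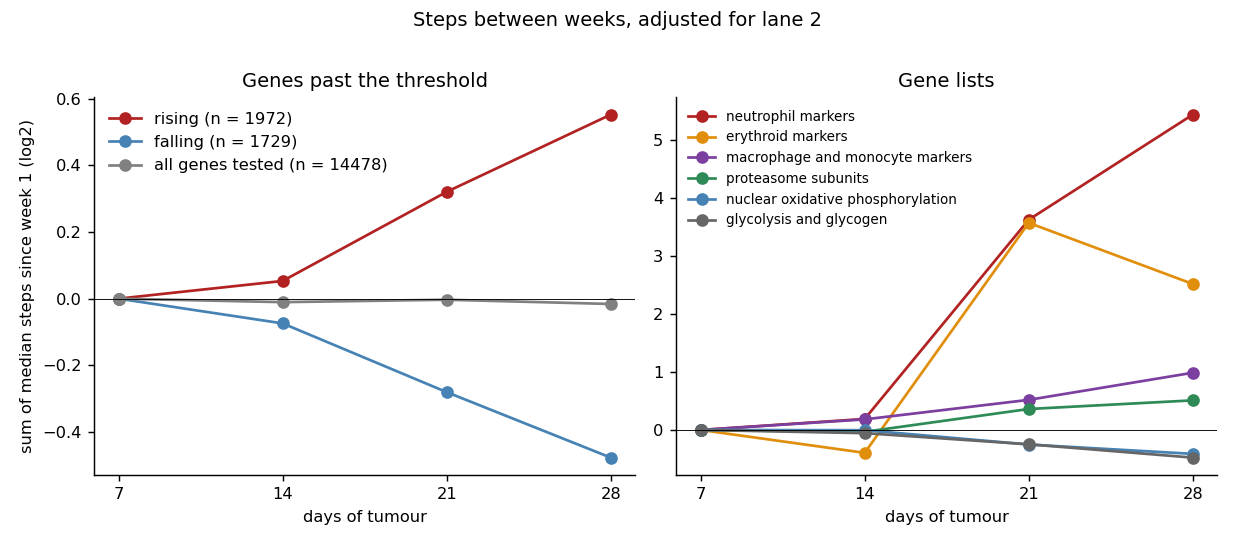
Sum of the median steps between weeks since week 1 (log2, vertical axis) over days of tumour, adjusted for lane 2, for the genes past the threshold and all genes tested (left) and for 6 gene lists (right). Rising and falling genes moved little between days 7 and 14, and the erythroid markers stood higher at day 21 than at day 28.

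The PBS libraries, which had no part in the fit, lay on the side of week 1. Group means of log2 CPM were compared, with no lane term. The PBS libraries were in lanes 5 and 6 and the week 4 libraries in lanes 2 and 4. Lane and group therefore cannot be told apart when week 4 is set against PBS. Among the rising genes, 1890 (95.8%) had a higher mean at week 4 than in PBS muscle, and 665 (33.7%) had a higher one at week 1. Among the falling genes, 74 (4.28%) were higher at week 4 than in PBS muscle and 1111 (64.3%) were higher at week 1. Over all genes tested, the shares above PBS were 48.4% at week 4 and 47.8% at week 1. The rising and falling genes were chosen on a slope that includes week 4, so their shares are a description.

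Lanes 2 and 4 each held libraries of all 4 weeks, 10 libraries a lane, and gave separate estimates of the slopes. Within lane 2, 1887 of 15432 genes (12.2%) changed with day, 1126 (7.3%) rising and 761 (4.93%) falling. Within lane 4, 29 of 14872 (0.195%) did, 20 (0.134%) rising and 9 (0.0605%) falling. Of 1843 genes called within lane 2 and tested in both lanes, 1731 (93.9%) had a slope of the same sign within lane 4; over all 14605 genes tested in both lanes, the share was 71.9%. The slopes were smaller within lane 4: genes called rising within lane 2 had a median slope of 0.35 in lane 2 and 0.17 in lane 4, and genes called falling had medians of -0.26 in lane 2 and -0.090 in lane 4. These genes were chosen within lane 2, so their lane 2 medians carry that choice. A product term of day and lane 2 passed the threshold for no gene, with 1163 genes at an unadjusted p under 0.05. Within lane 5 (weeks 1 and 2), 2 genes passed (0.0144%), and within lane 6 (weeks 2 and 3) 0 passed. Genes at an unadjusted p under 0.05 numbered 4719 within lane 2, 1607 within lane 4, 939 within lane 5 and 228 within lane 6.

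**Figure D2:**
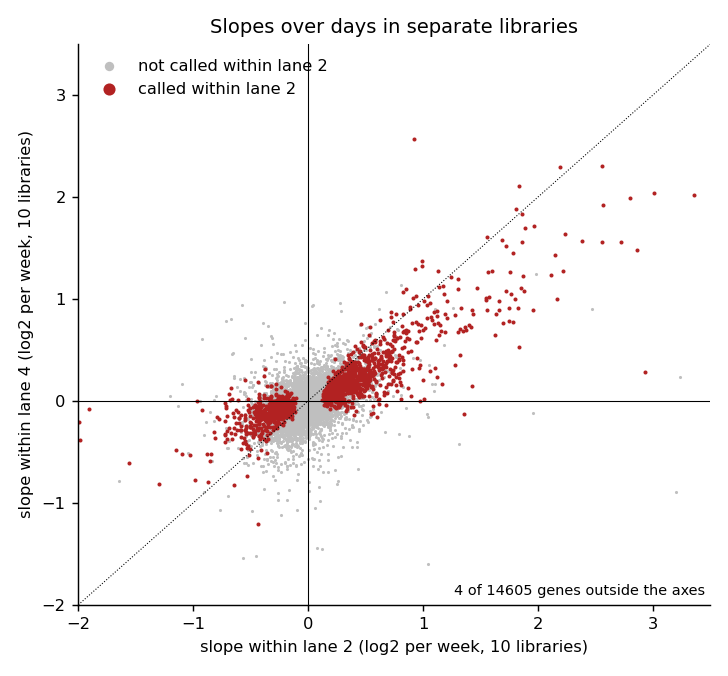
Slope over days within the 10 libraries of lane 2 (horizontal axis) against the slope within the 10 libraries of lane 4 (vertical axis), log2 per week, 1 point a gene. Genes called within lane 2 (red) had the same sign in lane 4 in 93.9% of cases, and most lay nearer to 0 in lane 4.

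The genes of smallest p that rose included receptors through which white cells grow and are directed. Csf2rb2 and Csf2rb are neighbours on chromosome 15 (chr15:78282507-78305721 and chr15:78325752-78353847 in GRCm38). Csf2rb encodes the beta chain shared by the receptors for IL-3, GM-CSF and IL-5, and Csf2rb2 a beta chain of the IL-3 receptor alone. Their sequences are closely alike, so how reads were shared between them is uncertain and their values are not independent. The RefSeq promoter of Csf2rb2, from 250 bases before to 50 bases after the gene's start (chr15:78305672-78305971, minus strand, GRCm38.p6), is shown because this gene had the smallest p among genes with a mean of at least 5 CPM. Its capitals mark the 1 match to the STAT motif TTCNNNGAA, the letters of factors that JAK kinases activate.
Csf2rb2: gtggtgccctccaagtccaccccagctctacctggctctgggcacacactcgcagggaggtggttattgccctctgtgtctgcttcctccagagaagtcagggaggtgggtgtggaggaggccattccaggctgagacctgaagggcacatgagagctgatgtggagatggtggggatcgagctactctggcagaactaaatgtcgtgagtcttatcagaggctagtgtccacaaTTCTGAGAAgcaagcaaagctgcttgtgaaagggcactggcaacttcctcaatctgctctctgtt

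Csf2rb2 was at 1.60 to 7.66 CPM (median 2.55) in PBS muscle, 1.79 to 4.02 (median 2.38) at week 1, 2.36 to 7.33 (median 3.25) at week 2, 3.33 to 12.8 (median 5.78) at week 3 and 12.7 to 24.8 (median 19.2) at week 4. Every one of the 8 week 4 libraries lay above the highest of week 1, as they did for 260 of all genes tested (1.8%). The slope of Csf2rb2 was 0.95 ± 0.090, or 7.27-fold over 21 days (adjusted p = 2.1e-08). Csf2rb was at 1.63 to 10.2 CPM (median 2.16) in PBS muscle, 1.35 to 3.55 (median 2.53) at week 1, 1.62 to 6.21 (median 2.78) at week 2, 2.97 to 11.8 (median 7.20) at week 3 and 11.1 to 31.0 (median 22.6) at week 4, again with no overlap between weeks 4 and 1. Its slope was 1.03 ± 0.10 (adjusted p = 2.2e-08), with 1.19 within lane 2 and 0.85 within lane 4.

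Csf3r, the receptor for G-CSF, the growth factor of neutrophils, was at 0.344 to 4.84 CPM (median 0.804) in PBS muscle, 0.151 to 1.39 (median 0.516) at week 1, 0.221 to 2.17 (median 0.858) at week 2, 0.718 to 11.6 (median 4.38) at week 3 and 5.87 to 27.1 (median 15.6) at week 4. It rose by 1.64 ± 0.17 per week (adjusted p = 9.7e-08), 30.0-fold over 21 days, and was among the 28 genes called when week 4 was left out (1.49, adjusted p = 0.012 over days 7 to 21). Il4ra, a receptor chain shared by IL-4 and IL-13, rose with a slope of 0.67 ± 0.074 (adjusted p = 2.5e-07), and Jak3, the kinase used by receptors with the common gamma chain, with 0.43 ± 0.046 (adjusted p = 1.4e-07). For Jak3, 8 of the 8 week 4 libraries lay above the highest week 1 library. Osmr, the receptor for oncostatin M, had a slope of 0.48 ± 0.059 (adjusted p = 1.4e-06), and Itgam, the CD11b integrin chain of granulocytes and macrophages, one of 0.58 ± 0.068 (adjusted p = 5.7e-07).

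Vessel proteins stood in the same group of small p. Plvap, which forms the diaphragms of endothelial pores, was at 11.4 to 17.8 CPM (median 13.7) in PBS muscle, 10.9 to 16.2 (median 12.2) at week 1, 8.72 to 15.4 (median 14.0) at week 2, 12.0 to 28.3 (median 18.8) at week 3 and 23.2 to 37.5 (median 34.0) at week 4. All 8 week 4 libraries were above the highest week 1 library, and the slope was 0.43 ± 0.048 (adjusted p = 3.3e-07). Entpd1, the ecto-ATPase CD39 of endothelium and white cells, rose by 0.38 ± 0.039 per week (adjusted p = 9.7e-08), and Scarb1, a receptor for high-density lipoprotein, by 0.44 ± 0.051 (adjusted p = 5.7e-07). Grrp1 completed the rising genes of smallest p, with a slope of 0.75 ± 0.074 (adjusted p = 4.8e-08). Of the 13 endothelial markers, 5 rose and none fell, with a median slope of 0.083, against -0.0015 over all genes tested. The examples were Vwf, the platelet-binding factor, with 0.33 ± 0.042, and Pecam1, an endothelial junction protein, with 0.22 ± 0.033 (adjusted p = 2.1e-06 and adjusted p = 2.6e-05). The summed endothelial markers were 587 to 900 CPM (median 765) at week 4, against 465 to 655 CPM (median 549) at week 1. These sums carry no lane term. At equal day, 6 of the 13 markers were higher and 3 lower in lane 2, which held 5 of the 8 week 4 libraries. Outside lane 2, 3 of the 13 rose, with a median slope of 0.092.

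Of 15 neutrophil markers, 11 had enough reads to be tested and rose. Only 5 of the 15 had enough reads when the week 4 libraries were left out, so the count of 11 depends on reads from the week in which the markers were high and is given as a description. Over days 7 to 21, 3 of those 5 rose. S100a9, a calcium-binding alarmin that neutrophils hold in bulk, was at 0.138 to 4.14 CPM (median 1.44) in PBS muscle, 0.0757 to 2.66 (median 0.663) at week 1, 0.0737 to 5.55 (median 0.573) at week 2, 0.882 to 73.2 (median 10.8) at week 3 and 27.9 to 116 (median 39.8) at week 4. Week 4 did not overlap with week 1, and week 3 spread over nearly the whole range between them. The slope of S100a9 was 2.34 ± 0.25 (adjusted p = 1.2e-07), and over days 7 to 21 it was 2.23 (adjusted p = 0.014). Its partner S100a8 had a slope of 2.41 ± 0.27 (adjusted p = 2.8e-07).

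Granule proteins were among the 11. Ltf, lactoferrin of the specific granules, was at 0 to 0.172 CPM at week 1 and at 0.770 CPM or more (median 4.25) at week 4, and Lcn2, which binds bacterial siderophores, had a slope of 1.75 ± 0.22 (adjusted p = 1.9e-06). The summed neutrophil markers were 2.55 to 21.3 CPM (median 7.00) in PBS muscle, 1.71 to 8.31 (median 4.51) at week 1, 1.99 to 14.2 (median 4.32) at week 2, 4.93 to 163 (median 25.7) at week 3 and 67.0 to 318 (median 137) at week 4. Camp, Elane, Mpo and Ly6g, 4 of the defining markers, had too few reads to be tested. In whole muscle, more cells of a type and more RNA per cell cannot be told apart.

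Red cell genes rose in a different shape. All 10 erythroid markers tested passed, with a median slope of 1.31, but the median step was -0.39 between weeks 1 and 2, 3.97 between weeks 2 and 3 and -1.05 between weeks 3 and 4. Slc4a1, the anion exchanger of the red cell membrane, was at 0.216 to 2.11 CPM (median 0.814) in PBS muscle, 0.0577 to 2.01 (median 0.698) at week 1, 0.286 to 1.25 (median 0.791) at week 2, 0.769 to 174 (median 11.6) at week 3 and 2.81 to 51.3 (median 13.2) at week 4. Week 3 held both the highest library and some at the level of week 1. Its slope was 2.19 ± 0.42 (adjusted p = 6.5e-04). Alas2, the first enzyme of haem synthesis in red cell precursors, had a slope of 1.34 ± 0.27 (adjusted p = 9.2e-04). The globins Hbb-bt (1.16 ± 0.27) and Hba-a2 (1.00 ± 0.24) rose as well (adjusted p = 0.0031 and adjusted p = 0.0043), and they have near-identical copies among which reads may have been split. Tent5c, a poly(A) polymerase that red cell and antibody-making cells are known to use, rose by 1.31 ± 0.26 (adjusted p = 9.0e-04). Without week 4, 8 of the 10 had enough reads to be tested. None of the 10 passed when lane 2 libraries were left out or over days 14 to 28, where their median slopes were 1.47 and 2.16, while Slc4a1 passed over days 7 to 21 (2.96, adjusted p = 0.019).

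Apol11b, a gene of the apolipoprotein L family, had the same shape and, with S100a8, S100a9, Slc4a1 and Mt2, one of the 5 largest slopes among genes with a mean of at least 5 CPM. It was at 0.196 to 1.66 CPM (median 0.422) in PBS muscle, 0.110 to 0.522 (median 0.287) at week 1, 0 to 0.663 (median 0.293) at week 2, 0.294 to 91.7 (median 8.66) at week 3 and 1.49 to 18.2 (median 5.36) at week 4. All 8 libraries of week 4 were above the highest of week 1, the highest library was one of week 3, and the slope was 2.38 ± 0.47 (adjusted p = 7.2e-04).

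Macrophage and monocyte markers rose at smaller slopes. Of 17 tested, 16 rose and none fell, with a median slope of 0.32 (0.44 within lane 2, 0.20 within lane 4). Outside lane 2, 2 of the 17 passed, with a median slope of 0.21. Tyrobp, an adaptor of activating receptors, had a slope of 0.51 ± 0.066 (adjusted p = 2.8e-06) and Lyz2, lysozyme, 0.29 ± 0.045 (adjusted p = 4.1e-05). The summed markers were 108 to 1265 CPM (median 157) in PBS muscle, 92.8 to 170 (median 141) at week 1, 119 to 190 (median 158) at week 2, 169 to 242 (median 197) at week 3 and 176 to 336 (median 278) at week 4. All week 4 libraries were above all week 1 libraries, but 1 PBS library was above them all. When PBS was entered as day 0, none of the 17 passed and their median slope was 0.03. Ptprc, the CD45 protein of white cells, was the only 1 of 14 lymphocyte markers with enough reads to test, and rose by 0.60 ± 0.079 (adjusted p = 3.1e-06).

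The ubiquitin ligases of muscle breakdown rose steeply in some mice. Fbxo32, atrogin-1, was at 392 to 757 CPM (median 549) in PBS muscle, 291 to 701 (median 392) at week 1, 371 to 569 (median 451) at week 2, 413 to 1807 (median 1276) at week 3 and 625.2 to 5060.1 (median 1924) at week 4. Of the 8 week 4 libraries, 7 lay above the highest week 1 library, and week 3 held values on both sides of it. Its slope was 0.79 ± 0.12, or 5.16-fold over 21 days (adjusted p = 2.0e-05), with 0.95 within lane 2 and 0.58 within lane 4. Trim63, MuRF1, which marks thick filament proteins for breakdown, was at 225 to 850.3 CPM (median 300.4) in PBS muscle, 228 to 488 (median 322) at week 1, 251 to 448 (median 304) at week 2, 304 to 1374 (median 458) at week 3 and 286 to 3859 (median 861) at week 4. The highest libraries were at week 4, but the lowest of week 4 lay within the range of week 1. The slope of Trim63 was 0.73 ± 0.14 (adjusted p = 6.1e-04). Over days 7 to 21 neither passed (Fbxo32 0.62, adjusted p = 0.077; Trim63 0.37, adjusted p = 0.24).

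**Figure D3:**
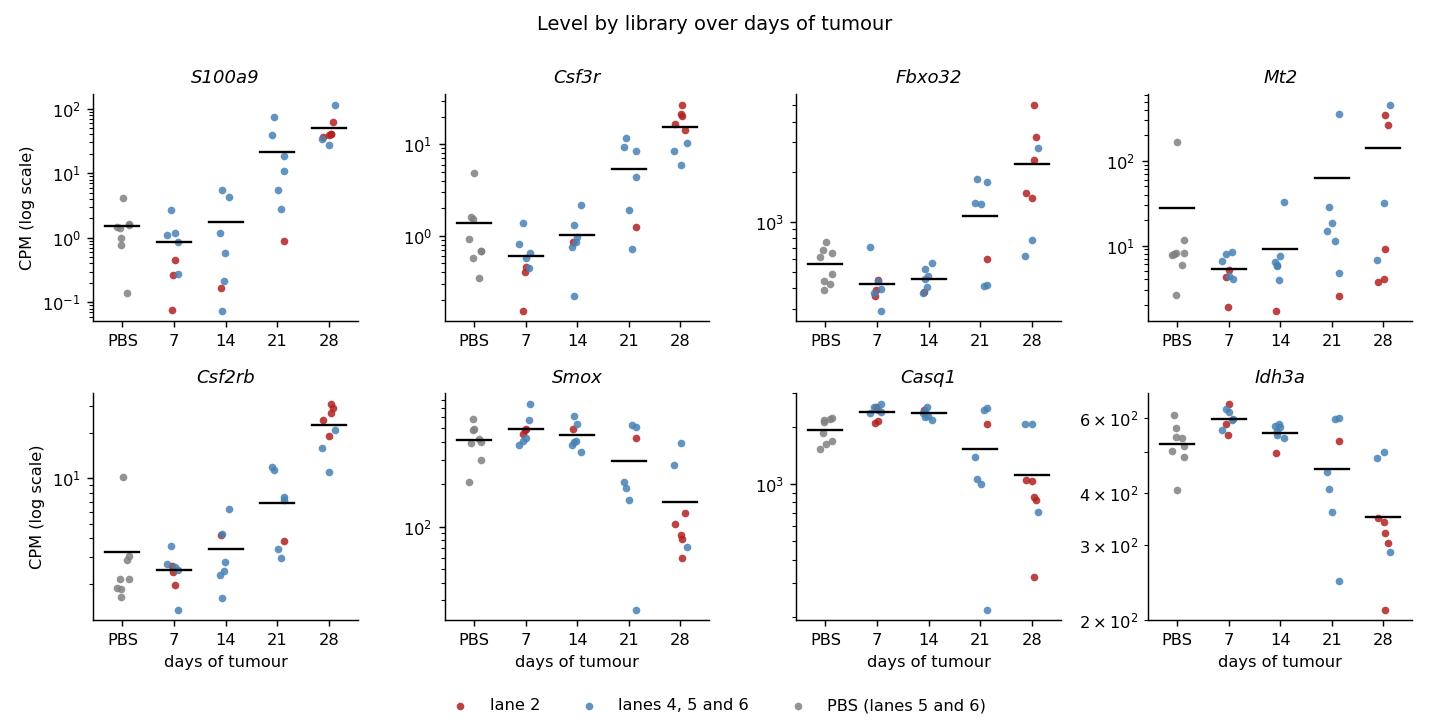
Level in CPM (log scale) of 8 genes by days of tumour, 1 point a library, with PBS muscle at the left, lane 2 in red, the other lanes in blue and the group mean as a black bar. S100a9, Csf3r, Csf2rb, Casq1 and Idh3a separate day 28 from day 7 in every library. Fbxo32, Mt2, Smox and Casq1 spread widely at day 28.

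The ubiquitin ligase list as a whole did not move one way, with a median slope of 0.0096. Of its 26 genes, 8 rose and 4 fell, against 13.6% rising and 11.9% falling over all genes tested. Without week 4 replicate 6, 4 of the 26 rose. Among them, the ubiquitin gene Ubb rose by 0.28 ± 0.056 per week (adjusted p = 7.5e-04) and Ube2d1, a conjugating enzyme, fell (-0.15 ± 0.033, adjusted p = 0.0023). The proteasome, the protease that degrades ubiquitin-tagged proteins, rose more evenly. All 34 subunits had positive slopes, 25 rose past the threshold and none fell, with a median slope of 0.19 (0.20 within lane 2 and 0.15 within lane 4). Outside lane 2, 1 of the 34 passed, with a median slope of 0.18. The regulatory particle subunits Psmd11 and Psmd4 had slopes of 0.37 ± 0.084 and 0.34 ± 0.075 (adjusted p = 0.0027 and adjusted p = 0.0022). Psmd4, a ubiquitin receptor of the proteasome, was at 123 to 179 CPM (median 139) in PBS muscle, 125 to 144 (median 130.5) at week 1, 113 to 171 (median 138) at week 2, 128 to 523 (median 175) at week 3 and 141 to 396 (median 214) at week 4, with 7 of 8 week 4 libraries above the highest of week 1. The median subunit thus rose by about as much per week as the median of all genes called rising (0.20), and no subunit passed over days 7 to 21, where the median slope was 0.16.

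In the autophagy and lysosome list, 12 of 32 genes rose and 1 fell, with a median slope of 0.069. Sqstm1, the p62 receptor that brings tagged cargo into autophagosomes, had a slope of 0.28 ± 0.060 (adjusted p = 0.0019), and the lysosomal protease Ctsd 0.28 ± 0.057 (adjusted p = 0.0011). Without week 4 replicate 5, 6 of the 32 rose. Of 22 FoxO and glucocorticoid genes, 8 rose and 1 fell, with a median slope of 0.18; without week 4 replicate 6, 4 rose. Eif4ebp1, a brake on translation initiation, rose by 0.56 ± 0.12 (adjusted p = 0.0021), Gadd45a, a stress-response gene, by 0.45 ± 0.13 (adjusted p = 0.011; 0.28 without week 4 replicate 5) and Cdkn1a, the cell cycle inhibitor p21, by 0.55 ± 0.13 (adjusted p = 0.0042). Foxo1 itself had a slope of 0.17 ± 0.10 and did not pass (adjusted p = 0.23).

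Genes of the IL-6 family, STAT3 and the acute phase rose in 14 of 20 cases and fell in 2, with a median slope of 0.38. The list is broader than its name, as the 14 include Il4ra and Il1r1, which are not receptors of IL-6 family cytokines. Lcn2 is among the 14 too and is also counted with the neutrophil markers. Stat3, the transcription factor downstream of IL-6 receptors, was at 46.3 to 63.3 CPM (median 53.3) in PBS muscle, 46.8 to 63.7 (median 60.9) at week 1, 55.5 to 64.1 (median 58.8) at week 2, 58.6 to 114 (median 69.5) at week 3 and 82.1 to 240.1 (median 102) at week 4, with a slope of 0.33 ± 0.058 (adjusted p = 1.8e-04). All 8 libraries of week 4 were above the highest of week 1. Socs3, a feedback inhibitor that STAT3 induces, had a slope of 0.60 ± 0.14 (adjusted p = 0.0025). Over days 7 to 21 none of the 19 tested passed in either direction, with a median slope of 0.17. In the 20 libraries outside lane 2, 23 genes of this list had enough reads to be tested. Of these 23, 8 rose and none fell, with a median slope of 0.28.

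The metallothioneins, small proteins that bind zinc and copper, rose through a minority of the libraries. Mt2 was at 2.63 to 168 CPM (median 8.10) in PBS muscle, 1.87 to 8.32 (median 4.79) at week 1, 1.70 to 32.8 (median 5.90) at week 2, 2.53 to 353 (median 14.8) at week 3 and 3.71 to 461 (median 20.5) at week 4. At week 4, 3 libraries were at 265 CPM or above and the other 5 at 32.0 CPM or below, and 1 library of week 3 and 1 of PBS also stood high. The lowest libraries of week 4 lay within the range of week 1. The slope of Mt2 was 1.75 ± 0.32, or 38.3-fold over 21 days (adjusted p = 3.5e-04). Mt1, its neighbour on chromosome 8, was at 7.17 to 116 CPM (median 12.1) in PBS muscle, 3.07 to 18.8 (median 8.39) at week 1, 3.22 to 35.4 (median 11.9) at week 2, 6.00 to 369 (median 15.7) at week 3 and 6.83 to 409.8 (median 22.9) at week 4, and the same week 4, week 3 and PBS libraries were high. Its slope was 1.42 ± 0.27 (adjusted p = 5.1e-04).

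The promoters of this pair are shown because their genes moved together and lie side by side; they and the metal response motif were chosen after the values were seen. Both are from RefSeq, on the plus strand of GRCm38.p6, Mt1 at chr8:94178839-94179138 and Mt2 at chr8:94172368-94172667. Capitals mark matches on either strand to the metal response element (TGCACNC or TGCGCNC), 3 in Mt1 and 4 in Mt2, to the palindromic glucocorticoid receptor motif, 1 in Mt1, and to the C/EBP motif TTGCNNAA, 1 in Mt2.
Mt1: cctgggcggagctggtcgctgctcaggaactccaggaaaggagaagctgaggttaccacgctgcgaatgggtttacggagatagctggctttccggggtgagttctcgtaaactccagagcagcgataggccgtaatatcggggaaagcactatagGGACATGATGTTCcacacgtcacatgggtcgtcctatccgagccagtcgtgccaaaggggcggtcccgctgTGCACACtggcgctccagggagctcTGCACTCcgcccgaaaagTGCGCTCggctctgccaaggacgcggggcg
Mt2: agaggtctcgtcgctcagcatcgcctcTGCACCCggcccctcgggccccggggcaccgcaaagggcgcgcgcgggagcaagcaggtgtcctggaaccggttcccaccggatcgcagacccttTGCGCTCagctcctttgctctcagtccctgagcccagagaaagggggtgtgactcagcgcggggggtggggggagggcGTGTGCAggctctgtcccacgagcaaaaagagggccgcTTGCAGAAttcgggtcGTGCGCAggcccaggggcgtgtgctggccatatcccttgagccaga

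Other antioxidant genes rose by less. Of 24 tested in the antioxidant and metallothionein list, 13 rose and 1 fell, with a median slope of 0.15. Gpx3, a glutathione peroxidase secreted into plasma, had a slope of 0.39 ± 0.068 (adjusted p = 1.8e-04). In the heat shock list, 10 of 20 rose and 1 fell (median 0.15), among them Hsp90aa1, the inducible HSP90, with 0.31 ± 0.059 (adjusted p = 6.5e-04), and Hspb7, a small heat shock protein of heart and muscle, with 0.58 ± 0.12 (adjusted p = 8.6e-04). Hspb7 was the one of them that also passed over days 7 to 21 (0.71, adjusted p = 0.028). Of 21 genes of endoplasmic reticulum and integrated stress, 10 rose and none fell (median 0.091), with Atf3, a stress-induced transcription factor, at 0.88 ± 0.23 (adjusted p = 0.0066); without week 4 replicate 6, 6 of the 21 rose.

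Sarcomere-bound stress proteins were among the larger rises. Csrp3, the muscle LIM protein of the Z-disc, was at 20.4 to 115 CPM (median 74.3) in PBS muscle, 10.8 to 34.6 (median 19.9) at week 1, 11.6 to 75.3 (median 41.3) at week 2, 29.1 to 163 (median 92.3) at week 3 and 22.1 to 137 (median 89.7) at week 4. PBS muscle was thus nearer to weeks 3 and 4 than to week 1. At week 4, 7 libraries lay above the highest of week 1, and the remaining one was the lowest of its group. Its slope was 0.79 ± 0.11 (adjusted p = 7.0e-06), and over days 7 to 21 it was 0.92 (adjusted p = 0.01). Ankrd2, an ankyrin repeat protein that answers stretch, had a slope of 0.53 ± 0.084 (adjusted p = 5.6e-05). In the slow fibre list of 13, these 2 and Casq2 rose and none fell, while Myh7, the slow myosin heavy chain, had a slope of 0.13 ± 0.078 (adjusted p = 0.23). The count for that list thus rested on Z-disc and calcium-binding proteins and not on the slow myosin.

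Of 15 genes of denervation and the neuromuscular junction, 5 rose and 3 fell, with a median slope of 0.079; without week 1 replicate 5, 1 fell. Musk, the receptor kinase that organises the junction, was at 19.4 to 50.8 CPM (median 32.1) in PBS muscle, 19.1 to 44.6 (median 28.0) at week 1, 23.1 to 48.5 (median 36.8) at week 2, 27.7 to 73.3 (median 42.7) at week 3 and 46.0 to 229.5 (median 57.0) at week 4, with 8 of 8 week 4 libraries above the highest of week 1 and a slope of 0.46 ± 0.085 (adjusted p = 4.0e-04). Myog, a myogenic factor that rises in denervated muscle, had a slope of 0.36 ± 0.081 (adjusted p = 0.0025). The clock list split as well, with 4 of 18 rising and 5 falling. Dbp, a clock output factor, fell (-0.47 ± 0.11, adjusted p = 0.003). The labels give no hour of collection.

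The 12 falling genes of smallest p had slopes between -0.41 and -0.11. Hmgcs1, an enzyme of cholesterol synthesis, was at 34.4 to 45.7 CPM (median 38.5) in PBS muscle, 38.3 to 49.1 (median 40.8) at week 1, 34.1 to 38.3 (median 37.5) at week 2, 25.6 to 39.6 (median 33.5) at week 3 and 26.0 to 34.6 (median 32.6) at week 4. All 8 libraries of week 4 lay below the lowest of week 1; over all genes tested, 84 (0.58%) had every week 4 library below every week 1 library. The slope of Hmgcs1 was -0.16 ± 0.026, or 0.716-fold over 21 days (adjusted p = 8.7e-05). Its RefSeq promoter held no match to any motif searched. Fsd1l was at 12.1 to 19.5 CPM (median 16.3) in PBS muscle, 15.9 to 27.2 (median 19.8) at week 1, 13.3 to 21.5 (median 17.5) at week 2, 8.14 to 26.0 (median 14.9) at week 3 and 4.86 to 13.2 (median 8.59) at week 4, with 8 of 8 week 4 libraries below the lowest of week 1 and a slope of -0.41 ± 0.067 (adjusted p = 1.0e-04). The first of its 2 RefSeq promoters (chr4:53631174-53631473, plus strand, GRCm38.p6) is shown as that of the falling gene of smallest p whose promoter held a match, with the 1 match to the C/EBP motif in capitals.
Fsd1l: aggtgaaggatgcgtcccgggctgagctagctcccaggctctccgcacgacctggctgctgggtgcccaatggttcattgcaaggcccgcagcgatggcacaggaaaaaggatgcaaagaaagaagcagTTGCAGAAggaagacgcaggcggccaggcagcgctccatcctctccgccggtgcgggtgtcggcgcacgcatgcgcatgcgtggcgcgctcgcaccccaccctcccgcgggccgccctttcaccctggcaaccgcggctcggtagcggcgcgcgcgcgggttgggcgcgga

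The other falling genes of smallest p came from many parts of the cell. Pfn1, profilin, which feeds actin filaments, had a slope of -0.19 ± 0.033 (adjusted p = 2.4e-04). Atl2 and Reep5, which shape the endoplasmic reticulum, had slopes of -0.20 ± 0.036 and -0.15 ± 0.027 (adjusted p = 3.4e-04 and adjusted p = 3.5e-04). Ndufaf1, an assembly factor of complex I, had one of -0.20 ± 0.037 (adjusted p = 3.5e-04), and Glud1, glutamate dehydrogenase of the mitochondrial matrix, one of -0.11 ± 0.020 (adjusted p = 3.8e-04). Fbxl17, Ibtk, Cc2d2a, Trim35 and Extl2 completed the 12, with slopes between -0.29 and -0.15.

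Among genes with a mean of at least 5 CPM, the largest falls were in other genes. Smox, spermine oxidase, which turns spermine into spermidine, was at 206 to 585 CPM (median 409) in PBS muscle, 383 to 748 (median 468) at week 1, 339 to 613 (median 409.6) at week 2, 25.5 to 531 (median 209) at week 3 and 60.2 to 394 (median 96.4) at week 4. Of 8 week 4 libraries, 7 were below the lowest of week 1, and 1 lay within the range of week 1. Its slope was -0.58 ± 0.13, or 0.302-fold over 21 days (adjusted p = 0.0024). Mettl21e, a lysine methyltransferase of muscle, had a slope of -0.62 ± 0.15 (adjusted p = 0.0033), and Actc1, cardiac actin, which adult skeletal muscle keeps at a low level, one of -0.61 ± 0.17 (adjusted p = 0.011). Nrep had a slope of -0.66 ± 0.16 (adjusted p = 0.0051). Foxo6os, an RNA antisense to Foxo6, had one of -0.79 ± 0.17 (adjusted p = 0.0018); whether counting used strand is not stated, so its reads and those of Foxo6 cannot be told apart. Of 11 polyamine genes, 1 rose (Odc1, ornithine decarboxylase, 0.22 ± 0.077, adjusted p = 0.038) and 3 fell (1 without week 1 replicate 4); Odc1 did not pass in 10 of the 30 fits that left out 1 library, and its slope was 0.17 without week 4 replicate 4.

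Nuclear genes of oxidative phosphorylation, which code for the respiratory chain and ATP synthase, fell together by small amounts. All 72 had negative slopes, 47 fell past the threshold and none rose, with a median slope of -0.15 (-0.20 within lane 2 and -0.11 within lane 4). Uqcrfs1, the Rieske iron-sulfur protein of complex III, was at 329.7 to 536 CPM (median 401) in PBS muscle, 144 to 416 (median 373) at week 1, 120.5 to 446 (median 412) at week 2, 125 to 432 (median 323) at week 3 and 89.0 to 313 (median 149) at week 4. Of 8 week 4 libraries, 4 were below the lowest of week 1, and the lowest library of each week was one of lane 2, with a lane 2 term of -1.20 on the log2 scale. Outside lane 2, the 3 week 4 libraries were at 273 to 313 CPM and the 5 week 1 libraries at 322 to 416 CPM. The slope was -0.24 ± 0.056 (adjusted p = 0.0032), and -0.16 without week 1 replicate 4. Atp5g3, a subunit c gene of ATP synthase, had a slope of -0.23 ± 0.053 (adjusted p = 0.0027) and a lane 2 term of -1.08.

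The lane term moved with this result. Of the 72 genes, 71 were lower in lane 2 than in the other lanes at equal day, with a median lane 2 term of -0.97, and lane 2 held 5 of the 8 week 4 libraries. The number that fell was 29 to 55 when 1 library was left out, lowest without week 1 replicate 4, 20 with no lane term and 0 in the 20 libraries outside lane 2 or over days 14 to 28. The median slope of the list was -0.19 with no lane term, -0.091 outside lane 2 and -0.18 over days 14 to 28. The part of the lane in the fall was not tested beyond these fits. Of 79 cytosolic ribosomal proteins, 75 were lower in lane 2, with a median lane 2 term of -1.07. Over days, 2 of them rose (Rpl3 and Rps9) and none fell, with a median slope of 0.034; without week 1 replicate 4, 8 rose.

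Genes of the TCA cycle and pyruvate dehydrogenase, which supply the respiratory chain, fell in 14 of 24 cases and rose in none, with a median slope of -0.11 (-0.13 within lane 2, -0.11 within lane 4). Fits within 1 lane called 10 falling in lane 2 and none in lane 4. None of the 24 passed outside lane 2 (median slope -0.087) or over days 14 to 28 (-0.15). Idh3a, the catalytic subunit of NAD-dependent isocitrate dehydrogenase, was at 406 to 611 CPM (median 528) in PBS muscle, 546 to 649 (median 596) at week 1, 496 to 582 (median 559) at week 2, 247 to 602 (median 449) at week 3 and 211 to 499 (median 331) at week 4. No library of week 4 reached the lowest of week 1. The slope of Idh3a was -0.25 ± 0.047 (adjusted p = 4.0e-04), and that of Dlat, the E2 subunit of pyruvate dehydrogenase, -0.23 ± 0.044 (adjusted p = 6.8e-04). Mitochondrial ribosomal proteins fell in 27 of 76 cases and rose in 1 (median -0.071); 63 were lower in lane 2, and 16 to 34 fell when 1 library was left out, lowest without week 1 replicate 4. Of the 13 proteins encoded by mitochondrial DNA, 2 fell, a share near the 11.9% of all genes, mt-Nd1 among them (-0.16 ± 0.046, adjusted p = 0.014), and 1 to 5 fell when 1 library was left out, most without week 3 replicate 1 and fewest without week 1 replicate 2. Of 22 genes of mitochondrial biogenesis and dynamics, 7 fell and 1 rose. Esrra, an estrogen-related receptor that drives mitochondrial genes, had a slope of -0.25 ± 0.062 (adjusted p = 0.0053), while Ppargc1a, its coactivator, had -0.061 ± 0.037 and did not pass (adjusted p = 0.23).

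Glycolysis and glycogen genes also fell, in 13 of 24 cases, while 4 rose (2 without week 1 replicate 8), with a median slope of -0.13 (-0.16 within lane 2, -0.088 within lane 4). None of the 24 passed outside lane 2, where the median slope was -0.089. Pgam2, the muscle phosphoglycerate mutase, had a slope of -0.30 ± 0.074 (adjusted p = 0.0044) and Tpi1, triosephosphate isomerase, -0.28 ± 0.068 (adjusted p = 0.0043). Of 25 genes of fatty acid uptake and beta-oxidation, 2 rose and 2 fell (0 without week 1 replicate 4). Both shares were below the 13.6% rising and 11.9% falling over all genes tested.

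Of 16 fast fibre sarcomere genes, 5 fell and none rose, with a median slope of -0.095. Casq1, the calcium store protein of the fast fibre reticulum, was at 1526 to 2224 CPM (median 1984) in PBS muscle, 2107 to 2648 (median 2431) at week 1, 2181 to 2531 (median 2365) at week 2, 217 to 2502 (median 1386) at week 3 and 324 to 2066 (median 948) at week 4. All 8 libraries of week 4 were below the lowest of week 1, and the lowest library of all was one of week 3. Its slope was -0.38 ± 0.10 (adjusted p = 0.0068). Mylpf, the fast regulatory light chain of myosin, had a slope of -0.26 ± 0.067 (adjusted p = 0.0066).

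Extracellular matrix genes fell in 12 of 36 cases and rose in 3 (1 without week 1 replicate 4), with a median slope of -0.11, but this was not even over the lanes. Within lane 2 the median slope was 0.060, with 5 rising and none falling, and within lane 4 it was -0.20, with 3 falling and none rising. At equal day, 20 of the 36 were higher in lane 2. In the 20 libraries outside lane 2, 11 fell and none rose. Col1a1, the alpha 1 chain of type I collagen, was at 43.2 to 252 CPM (median 57.7) in PBS muscle, 65.0 to 178 (median 75.2) at week 1, 45.9 to 171 (median 74.8) at week 2, 14.6 to 115 (median 48.4) at week 3 and 24.1 to 101 (median 32.8) at week 4. Of 8 week 4 libraries, 6 were below the lowest of week 1 and the others within its range. Its slope was -0.48 ± 0.12 (adjusted p = 0.0053), with -0.24 within lane 2 and -0.69 within lane 4. Col1a2, its partner chain, had a slope of -0.43 ± 0.11 (adjusted p = 0.0062), Col3a1, type III collagen, -0.35 ± 0.10 (adjusted p = 0.016), and Loxl2, which cross-links collagen, -0.36 ± 0.069 (adjusted p = 6.5e-04). The 3 that rose were Lox, Eln and Col4a2, with slopes of 0.42, 0.16 and 0.12 (adjusted p = 0.0099, 0.033 and 0.040).

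Tendon markers lay the same way, with 2 of 8 falling (Kera, the corneal and tendon proteoglycan keratocan, -0.84 ± 0.21, and Tnmd, tenomodulin, -0.61 ± 0.18; adjusted p = 0.006 and adjusted p = 0.015). Their median slope was 0.10 within lane 2 and -0.66 within lane 4, and their sum was 28.8 to 533 CPM (median 78.5) at week 4, against 83.0 to 317 CPM (median 142) at week 1. The part of tendon in the collagen slopes was not tested. Of 10 fibro-adipogenic cell markers, 1 rose and 2 fell (4 without week 1 replicate 5), against 13.6% rising and 11.9% falling over all genes tested.

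In the remaining lists the share called in either direction was below the 25.6% of all genes tested. Of 21 genes of IGF-1, insulin and mTOR, 5 rose and none fell, with Pik3r1, a regulatory subunit of PI3-kinase, at 0.28 ± 0.074 and Akt1 at 0.31 ± 0.081 (adjusted p = 0.0068 and adjusted p = 0.0071); Igf1 had a slope of -0.074 ± 0.077 (adjusted p = 0.51). Of 13 genes of myostatin and activin, 2 rose and none fell, and Mstn, myostatin, had a slope of 0.089 ± 0.045 (adjusted p = 0.15). Of 16 genes of satellite cells and Notch, 3 rose and 1 fell, and of 16 cell cycle genes, 3 rose and 1 fell. The interferon list of 26, set against 13.6% rising and 11.9% falling over all genes tested, held 2 that rose, Isg15 (0.76 ± 0.17) and Rsad2 (0.69 ± 0.17), and 3 that fell, Gbp3 (-0.35 ± 0.10) among them; Gbp3 did not pass without week 1 replicate 5, with a slope of -0.28. In that list, 1 gene fell without week 1 replicate 4 and 6 without week 3 replicate 3. Of the pericyte and smooth muscle (10) and Schwann cell (9) markers none passed, and of 9 adipocyte markers 1 rose; 5 Schwann cell markers fell without week 4 replicate 7.

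**Figure D4:**
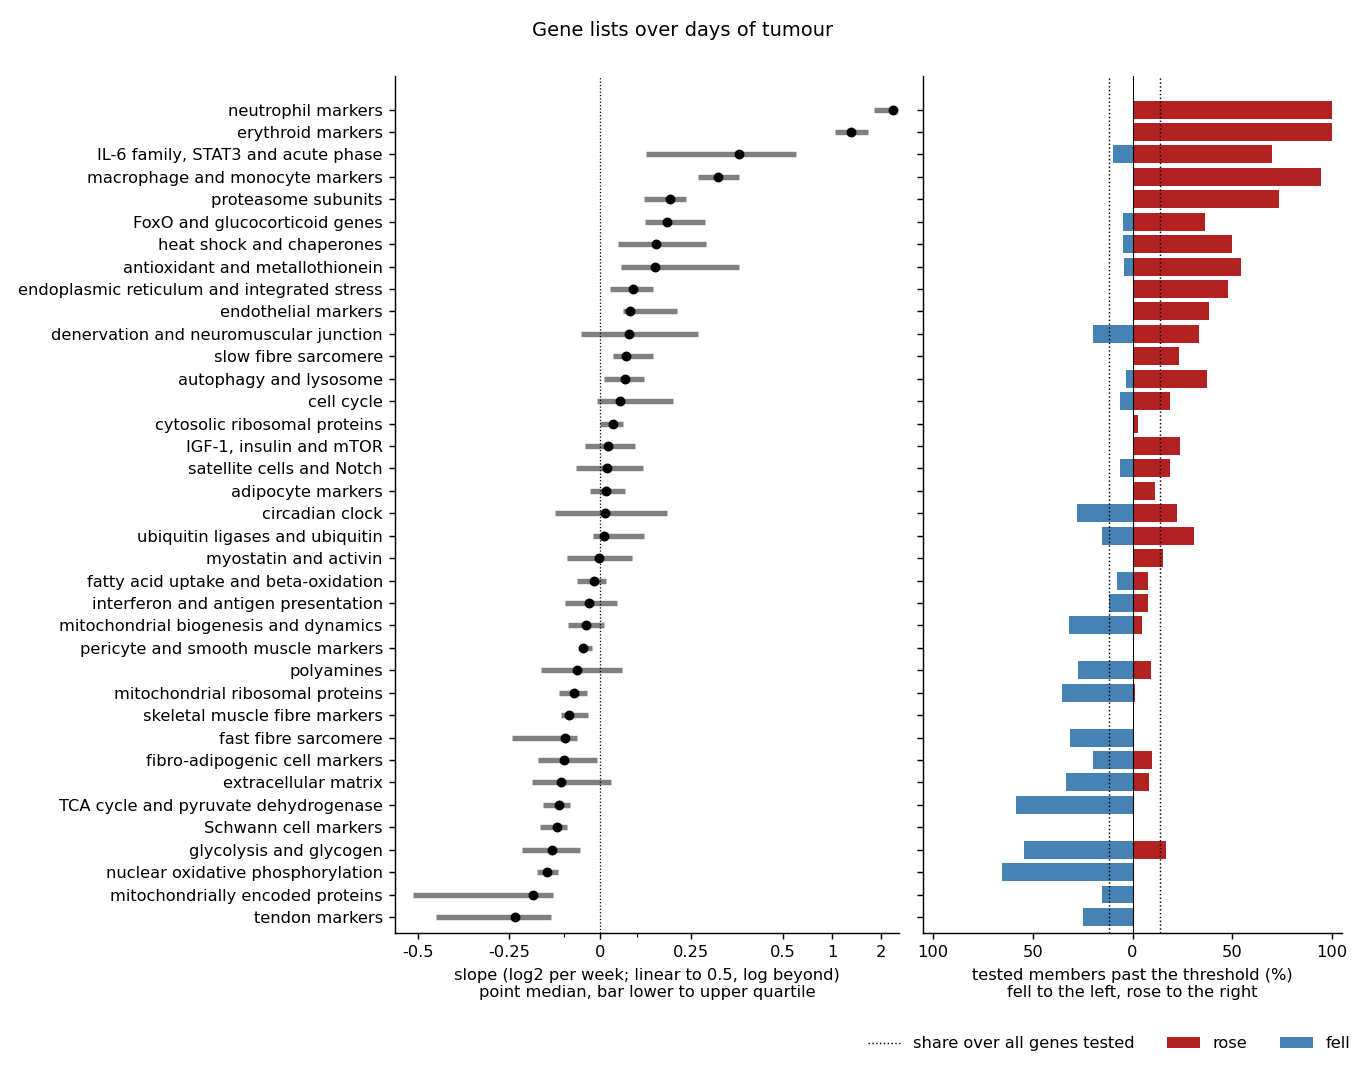
Gene lists ordered by median slope in log2 per week (left; point median, bar lower to upper quartile of the tested members), with the share of tested members in percent that rose (right panel, red, to the right) or fell (blue, to the left); dotted lines mark the shares over all genes tested (13.6% and 11.9%), and lymphocyte markers, with 1 gene tested, are left out. Neutrophil and erythroid markers stood at the top, and tendon markers and mitochondrially encoded genes at the bottom.

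Shares of promoters that hold the letters of a motif were set side by side, with no test. Of 10473 tested genes with a RefSeq promoter, 1531 rose and 1287 fell. The STAT motif TTCNNNGAA stood in 7.32% of promoters of genes that rose, 6.45% of those that fell, 6.82% of those tested and 8.47% of all 27025 promoters. For the C/EBP motif TTGCNNAA the shares were 9.73%, 8.55%, 8.27% and 10.8%, and for the FoxO motif TGTTTAC 2.09%, 2.41%, 2.47% and 3.55%. The glucocorticoid receptor motif was in 0.392% of promoters of rising genes, 0.544% of those of falling genes and 0.372% of those tested. For the estrogen-related receptor motif TCAAGGTCA these shares were 0.261%, 0.389% and 0.277%, and for the myogenic E-box CAGCTG 16.5%, 15.5% and 15.5%. The metal response element in its TGCGCNC form was in 23.5% of promoters of rising genes, 26.7% of those of falling genes and 27.0% of those tested, and in its TGCACNC form in 12.1%, 13.6% and 12.6%. Both strands were searched, no match in the promoters shown overlapped another, and a match of letters is a description and not a site.

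The number of calls depended on which weeks and lanes were kept. Over days 7 to 21, without the 8 week 4 libraries, 28 of 13974 genes (0.2%) passed, all rising, and 1802 had an unadjusted p under 0.05. Of the 28, 27 were among the 3701 of all 30 libraries. Of 3579 of the 3701 tested over days 7 to 21, 3534 kept the sign of their slope, in libraries that both fits share. They included the myeloid genes S100a8, S100a9, Csf3r, Itgam and Slfn4, the red cell gene Slc4a1, and the muscle genes Csrp3, Ankrd1, Flnc, Hspb7 and Klhl40. Over days 14 to 28, 513 genes passed, 345 rising and 168 falling. Without the 10 lane 2 libraries, 356 passed, 239 rising and 117 falling. No gene of the autophagy, FoxO, heat shock, endoplasmic reticulum, mitochondrial ribosomal or fast fibre lists passed there. The median slopes of these lists kept their sign. Leaving out single libraries gave 2676 to 4069 changed genes, lowest without week 4 replicate 6.

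**Figure D5:**
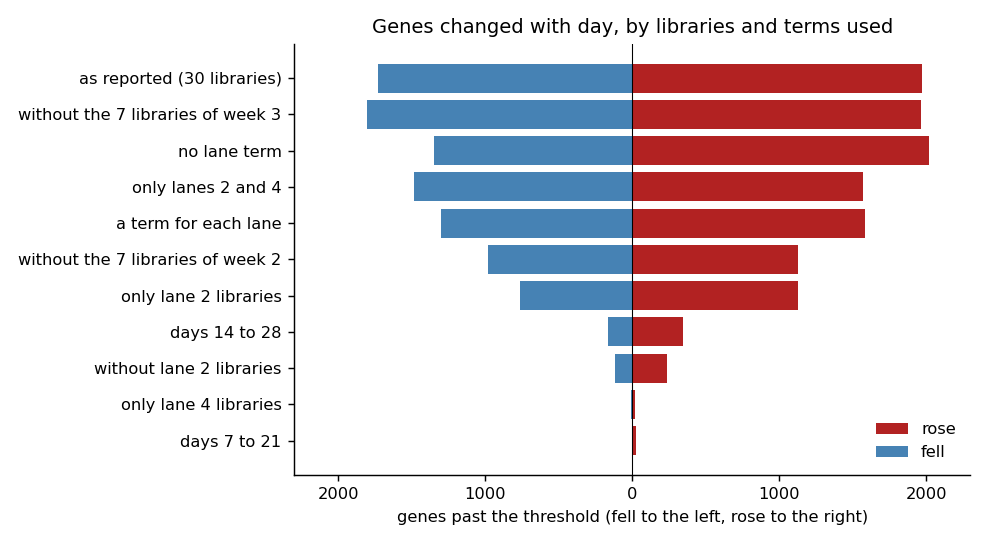
Number of genes past the threshold (horizontal axis; fell to the left, rose to the right) for the fit of 30 libraries and for fits with other libraries or lane terms. The counts were 28 over days 7 to 21 and 29 within lane 4, against 3701 in the fit of all 30 libraries.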

How the data were processed

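RNA was sequenced from mouse gastrocnemius, with 1 µg of RNA put into each library per the labels' protocols. The deposited values are raw gene counts, for which the submitters' processing notes name HTSeq, HISAT2, FastQC and the build GRCm38.p5. Versions, annotation release and strand setting are not given in the sources used here. Lines of reads outside genes were left out: reads in genes made up 44.5% to 80.9% of a library over weeks 1 to 4, reads in no gene 4.58% to 10.6% and reads of several places 7.47% to 27.8%. Of 46078 genes in the files, 45143 have a name in GENCODE M21. Week 3 replicate 2 was not analysed here. The authors' 10 comparison tables were not used. Lanes were read from the names of the files.

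Slopes come from edgeR 4.0.16, run in R 4.3.3 (TMM scaling, filterByExpr by week with a minimum count of 10, quasi-likelihood F test, Benjamini-Hochberg over 14478 genes, threshold 0.05), with day as a continuous term and a lane 2 term. The standard error is the slope over the root of F, and the common dispersion was 0.0643. Departure from a line was tested on week as a factor, and the day by lane 2 product in a further fit. The code was checked on simulated counts. CPM use TMM library sizes with no lane term, and their spread is given by lowest, median and highest library. The labels number every sample by itself, so no number pairs samples. No library duplicated another: the lowest chi-square of counts per degree of freedom within a week was 13.0. Alternatives used DESeq2 1.42.0, limma 3.58.1 (voom), other normalizations, filters, lane terms and sets of libraries.

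The text names, among changed genes with a mean of at least 5 CPM and leaving out predicted-gene names, the 12 of smallest p and the 5 largest slopes in each direction, up to 4 of smallest p in each list, the 5 of smallest p for a departure from a line and 13 cachexia genes, whether changed or not. Ptprc, Slfn4, Ankrd1, Flnc, Klhl40, Lox, Eln and Col4a2 were named after their values were seen. The rule for the libraries and the lists were chosen with earlier results of these data known. Some genes that the rule names are not reported here. Promoters of Csf2rb and Fbxo32 are not in the table used. Motifs were searched in RefSeq promoters of 300 bases, 1 for each gene.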

Additional observations from a re-analysis of the deposited data

Results flagged for a closer look

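Over 96 genes followed one by one and the 4 weeks, 26 of 384 groups held 1 library set apart from the rest of its week by a gap that was large against the group's range (Dixon's test at the 95% level); chance flags about 1 in 20 groups. Week 2 replicate 3, the only lane 2 library of its week, accounted for 10 of the 26. It was low for the respiratory chain genes Uqcrfs1 (120.5 CPM, the other libraries of week 2 at 392 to 446) and Atp5g3 (195, others 441 to 545), for Ndufaf1 (23.6, others 30.5 to 35.2), Mylpf (5356, others 10324 to 13411), Pgam2 (932, others 1280 to 1467) and Hba-a2 (8.81, others 27.9 to 56.9). It was high for Myh4 (88629, others 40477 to 52592), Vwf (69.7, others 32.3 to 41.4), Cc2d2a (20.3, others 11.6 to 13.5) and Ibtk (159.5, others 119 to 134). At equal day the same genes had a lane 2 term of the same direction, for example -1.20 for Uqcrfs1 and 0.51 for Vwf on the log2 scale. What sets this library apart was not tested.

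Week 3 replicate 1 stood apart for 5 genes. Mettl21e was at 0 CPM (others 1.53 to 7.08), Smox at 25.5 (others 154 to 531), Casq1 at 217 (others 995 to 2502) and Myh7 at 81.6 (others 167 to 268), while Gadd45a was at 78.1 (others 12.8 to 23.4). This library was thus lower than any week 4 library in Smox and Casq1, and its Mt2 (353 CPM) and Fbxo32 (1743 CPM) were high for its week. It also had 8.97% of its reads in no gene, against a median of 5.12% over weeks 1 to 4. Its share of mitochondrial reads, 7.71%, was the lowest of the 30 libraries. What sets it apart was not tested.

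The remaining 11 flags were spread over other libraries. Week 4 replicate 4 was low for Grrp1 (4.90, others 7.89 to 11.3) and Jak3 (13.4, others 17.7 to 22.1). Week 1 replicate 5 was low for Col3a1 (98.3, others 149 to 210), Hbb-bt (11.1, others 32.8 to 65.0) and Alas2 (7.95, others 15.0 to 24.5). Il4ra was high in week 1 replicate 7 (10.1, others 6.98 to 7.95), Lyz2 in week 4 replicate 6 (108, others 60.3 to 78.3) and Psmd11 in week 4 replicate 5 (482, others 103 to 212). Sqstm1 was low in week 1 replicate 3 (414, others 498 to 561), Uqcrfs1 in week 3 replicate 8, the only lane 2 library of its week (125, others 260 to 432), and Csrp3 in week 4 replicate 1 (22.1, others 73.8 to 137).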

How the results depend on the processing

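In place of the 3701 genes changed over days, 1972 rising and 1729 falling, the count was 356 (239 rising, 117 falling) without lane 2 libraries, 29 (20 and 9) in lane 4 alone, 1887 (1126 and 761) in lane 2 alone, 28 (28 and 0) over days 7 to 21 and 513 (345 and 168) over days 14 to 28. It was 2433 (1279 rising) with PBS as day 0 and 1640 (1007 and 633) when a change of at least 1.5 times over 21 days was also asked. Without week 2, an alternative chosen after seeing the data like those without week 3 and with only lanes 2 and 4, it was 2110 (1125 and 985). Apart from the fit with PBS, which adds 8 libraries, these fits use fewer libraries or ask for more. Why the counts differed between any of these fits was not tested. DESeq2 called 4010 genes, limma voom 3488, a term for each lane 2883 and no lane term 3367.

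Leaving out each library in turn gave 2676 to 4069 changed genes (1453 to 2149 rising, 1223 to 1920 falling), 5319 to 6419 that differed by lane, 0 to 10 that departed from a line and 0 to 1 whose slope differed between lanes. With no filter on low counts, 6 departed from a line. Of the 89 changed genes among the 96 followed one by one, 87 passed in every one of these fits, 39 without lane 2 libraries and 9 over days 7 to 21. Signs turned for Foxo1 over days 7 to 21 (-0.0094), Myh7 in lane 4 (-0.034), Zfp825 over days 7 to 21 (0.067) and days 14 to 28 (0.061), and Lyz2 with PBS as day 0 (-0.078).

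No paired analysis was possible because no number in the labels is shared between groups. Week 4 is unevenly spread over lanes, 5 of its 8 libraries being in lane 2, and lanes 5 and 6 hold no week 4 library, so week 4 is seen only in lanes 2 and 4. Genes with few reads, such as most lymphocyte markers, could not be tested at this depth.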
